A study of Mus musculus with 18 samples.

Results

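KO2 and KO1 are the knockout lines of Mettl3 in this study of mouse embryonic stem cells, and the H3K4me3 lists of KO2 were set against those of KO1. Mettl3 encodes the catalytic subunit of the complex that writes N6-methyladenosine on RNA. Members were H3K4me3 regions with a peak in both libraries of one line and in neither library of the other. Of 90138 regions in the 4 lists, 8054 met this rule: 4453 were KO2-only (4.94%) and 3601 were KO1-only (3.99%). A region is a stretch where peaks of any of the 4 lists share at least 1 base. The series has 18 samples, of which 12 have a peak list, 2 for each line (KO2, KO1 and Control) and mark (H3K4me3 and H3K27ac), and 6 are input chromatin, not analysed here. Every group shared the C57BL/6 background and the medium, with 1000 U/ml LIF, 3 µM of the GSK3 inhibitor CHIR99021 and 1 µM of the MEK inhibitor PD0325901. Per the labels, the genotypes are Mettl3 KO2, Mettl3 KO1 and Mettl3 Control; how each allele was made, and whether a line is 1 clone, was not stated in the labels. Control took no part in choosing members and is given beside them. The labels do not say whether the 2 libraries of a group came from different cultures, so a p-value here reflects library-to-library spread, part of which can be technical.

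H3K4me3 is trimethylation of lysine 4 on histone H3, laid down by SET1 and MLL enzymes and removed by KDM5 enzymes. It is strongest at the starts of active and poised genes, above all where the DNA is rich in CG dinucleotides, and a broad domain can run from a start into the gene body. H3K27ac, acetylation of lysine 27 on the same histone, marks active promoters and active enhancers, and weak H3K4me3 is often seen at strong enhancers.

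The promoters below are shown because their H3K4me3 differed between the lines, and CG dinucleotides are in capitals. Each sequence is RefSeq's for GRCm38.p6, the assembly of mm10, from upstream of the listed start to just inside the transcript, 5′ to 3′ on the gene's strand. Klhdc7a (chr4:139967977-139968276, minus strand) and Kif1a (chr1:93101825-93102124, minus) had a promoter peak in both KO2 libraries and in neither KO1 library, and Ly75 (chr2:60383224-60383523, minus) was wider in KO2. Kdm5d (chrY:897538-897837, plus) had one in neither KO2 library and in both KO1 libraries, and Aim2 (chr1:173420354-173420653, plus) and Trh (chr6:92244601-92244900, minus) were wider in KO1.
Klhdc7a: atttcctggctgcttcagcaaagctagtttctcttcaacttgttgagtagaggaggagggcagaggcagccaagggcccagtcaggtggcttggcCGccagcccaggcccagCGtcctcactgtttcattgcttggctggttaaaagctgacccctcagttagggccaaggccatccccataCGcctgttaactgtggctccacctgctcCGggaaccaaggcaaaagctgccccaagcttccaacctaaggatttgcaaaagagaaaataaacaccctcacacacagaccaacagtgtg
Kif1a: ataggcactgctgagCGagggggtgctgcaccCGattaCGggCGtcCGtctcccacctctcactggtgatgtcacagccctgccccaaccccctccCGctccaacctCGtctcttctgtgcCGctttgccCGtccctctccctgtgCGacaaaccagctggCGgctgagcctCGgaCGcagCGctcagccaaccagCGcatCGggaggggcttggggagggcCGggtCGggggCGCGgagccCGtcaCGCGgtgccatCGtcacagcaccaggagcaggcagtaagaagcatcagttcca
Ly75: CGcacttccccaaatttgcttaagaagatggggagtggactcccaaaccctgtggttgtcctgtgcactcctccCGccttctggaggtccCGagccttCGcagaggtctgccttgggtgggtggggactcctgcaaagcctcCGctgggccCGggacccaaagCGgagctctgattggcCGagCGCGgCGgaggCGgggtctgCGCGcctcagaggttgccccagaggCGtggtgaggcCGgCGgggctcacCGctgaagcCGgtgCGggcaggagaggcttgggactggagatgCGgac
Kdm5d: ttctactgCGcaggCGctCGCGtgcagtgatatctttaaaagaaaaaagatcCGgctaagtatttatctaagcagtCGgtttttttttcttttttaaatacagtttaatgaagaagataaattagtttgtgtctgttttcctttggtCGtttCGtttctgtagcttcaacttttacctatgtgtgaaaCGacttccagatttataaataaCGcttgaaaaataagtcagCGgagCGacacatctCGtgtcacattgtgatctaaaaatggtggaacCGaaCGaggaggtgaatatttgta
Aim2: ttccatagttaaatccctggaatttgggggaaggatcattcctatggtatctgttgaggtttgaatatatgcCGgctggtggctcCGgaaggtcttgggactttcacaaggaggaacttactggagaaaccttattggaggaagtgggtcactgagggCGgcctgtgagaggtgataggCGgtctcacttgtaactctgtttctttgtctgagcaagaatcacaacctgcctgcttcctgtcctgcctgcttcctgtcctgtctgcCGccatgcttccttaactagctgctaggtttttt
Trh: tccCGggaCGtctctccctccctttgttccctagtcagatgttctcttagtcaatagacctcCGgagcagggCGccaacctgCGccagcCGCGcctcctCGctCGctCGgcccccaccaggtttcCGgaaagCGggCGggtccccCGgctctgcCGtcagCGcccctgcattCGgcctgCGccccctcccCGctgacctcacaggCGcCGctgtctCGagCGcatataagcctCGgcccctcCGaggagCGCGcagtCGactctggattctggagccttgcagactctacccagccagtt
These promoters spanned the range of CG content. Klhdc7a held 4 CG dinucleotides and Aim2 held 5, against 15 in Kdm5d, 21 in Ly75, 24 in Kif1a and 28 in Trh. Within the printed stretch, peaks covered 258 and 190 of the 300 bases at Klhdc7a and 53 and 133 at Kif1a in the KO2 libraries, and no base in the KO1 libraries. At Kdm5d they covered no base in KO2, and 259 and 231 bases in KO1. At Aim2 they covered 9 and 0 bases in KO2, and 77 and 126 in KO1. Peaks covered all 300 bases of Trh in every library of both lines, and 167 and 172 bases of Ly75 in KO2, against 185 and 185 in KO1, so the wider H3K4me3 at these genes lay outside the stretch shown.

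The H3K4me3 lists of the lines were of like size. KO2 lists held 72286 and 66466 peaks, and KO1 lists 69979 and 69307. They covered 50.04 and 41.7 Mb in KO2, and 46.6 and 45.2 Mb in KO1. The H3K4me3 lists of Control were longer, with 83628 and 81590 peaks over 58.2 and 56.3 Mb. The mean difference, KO2 minus KO1, was -267 peaks (exact 2-sided permutation p = 1, n = 2 each). The smallest p that 2 against 2 libraries can give is 0.333. Sequencing depth is unknown. H3K27ac lists were longer in KO2, with 65390 and 61374 peaks, than in KO1, with 40202 and 39041, and Control had 29966 and 32948. Of 10 embryonic stem cell markers, 9 had H3K4me3 within 1 kb of the start in all 4 knockout libraries, Pou5f1, Sox2 and Nanog among them, and the tenth was Esrrb (below). Of 10 fibroblast (feeder) markers 5 had it in all 4 libraries and Col3a1, Lum and Postn had none; the list's mean coverage was 33.1% and 28.1% in KO2, 29.0% and 27.8% in KO1, and 33.3% and 29.7% in Control. H3K27ac at the same feeder markers averaged 26.2% and 22.8% in KO2, 12.7% and 11.03% in KO1, and 12.4% and 10.02% in Control. It was higher in KO2 at other marker lists too. Stem cell markers averaged 75.2% and 76.5% in KO2, against 51.2% and 49.8% in KO1. The 6 neural markers averaged 11.6% and 13.9% in KO2, against 3.57% and 2.08% in KO1. The 7 trophoblast markers averaged 6.61% and 5.81% in KO2, against 1.94% and 0.939% in KO1. Primitive endoderm markers were at 0.469% or below in every library. Among the feeder markers, Vim had H3K27ac over 46.04% and 42.3% of its window in KO2 and 3.75% and 3.97% in KO1. Its difference passed limma's test also after quantile normalization (26.1 points, adjusted p = 0.0436). So did those of the stem cell markers Klf4 (limma adjusted p = 0.0427) and Tdgf1 (0.0349). Those of the stem cell markers Pou5f1, Sox2, Nanog, Zfp42, Tfcp2l1, Dppa5a and Utf1 did not. After that normalization the difference was -1.11 points at Sox2, -3.60 at Zfp42 and -10.9 at Dppa5a. The feeder marker Ccn1 did not pass then (8.62 points, limma adjusted p = 0.579). The part of feeder cells in the results was not tested. In the window of the targeted gene, Mettl3, coverage was 48.0% and 44.1% in KO2, 37.9% and 41.5% in KO1, and 65.4% and 64.2% in Control; a promoter mark does not show whether a coding part was removed.

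KO2-only and KO1-only regions differed in their position relative to genes. For protein-coding genes without a listed start, both ends of the gene were counted as starts. Regions away from starts that lay inside non-coding genes alone were counted as between genes. Of the 4453 KO2-only regions, 13.5% came within 1 kb of a gene start, 47.7% lay elsewhere inside a protein-coding gene and 38.8% lay between genes. Of the 3601 KO1-only regions, 5.39% came near a start, 73.0% lay elsewhere inside a gene and 21.6% lay between genes. The 32362 regions of all 4 libraries had the highest share at starts, with 49.8% near one, 29.8% elsewhere inside a gene and 20.4% between genes. Of all 90138 regions 23.5% came near a start, 52.1% lay elsewhere inside a gene and 24.4% lay between genes. The median width was 356 bp for KO2-only and 370 bp for KO1-only regions, near the 384 bp of all 90138 regions. For regions of all 4 libraries it was 1071 bp. Of KO2-only regions 30.2% lay within 1 kb of a region of all 4 libraries, and of KO1-only regions 39.7%. Among all regions not in all 4 libraries this share was 34.1%.

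Inside genes, KO2-only regions lay farther from the 5′ end than KO1-only regions. KO2-only regions were centred at a median of 45.5% of the gene's length from its 5′ end, and 26.8% of them fell in the 25% nearest that end. KO1-only regions were centred at a median of 26.6%, with 47.5% in the 25% nearest it. The regions of all 4 libraries that lay inside genes were between these, with a median of 35.8%. These positions are over 1686 KO2-only, 2129 KO1-only and 7517 shared pairs of a region and a gene with known strand, and are a description with no test.

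Control shared fewer KO2-only regions than KO1-only regions, and its share of KO1-only regions was close to that of all regions. Of KO2-only regions 51.6% had no peak in either Control library and 22.8% had one in both. Of KO1-only regions 22.2% had none and 53.8% had one in both, and of all 90138 regions 26.8% had none and 54.7% had one in both. KO1-only regions that Control shared were mostly in gene bodies: 85.0% of the 1937 found in both Control libraries lay inside a gene away from its start, against 48.4% of the 801 found in neither. KO2-only regions went the same way, with 65.7% of the 1017 found in both Control libraries and 40.9% of the 2298 found in neither.

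**Figure D1:**
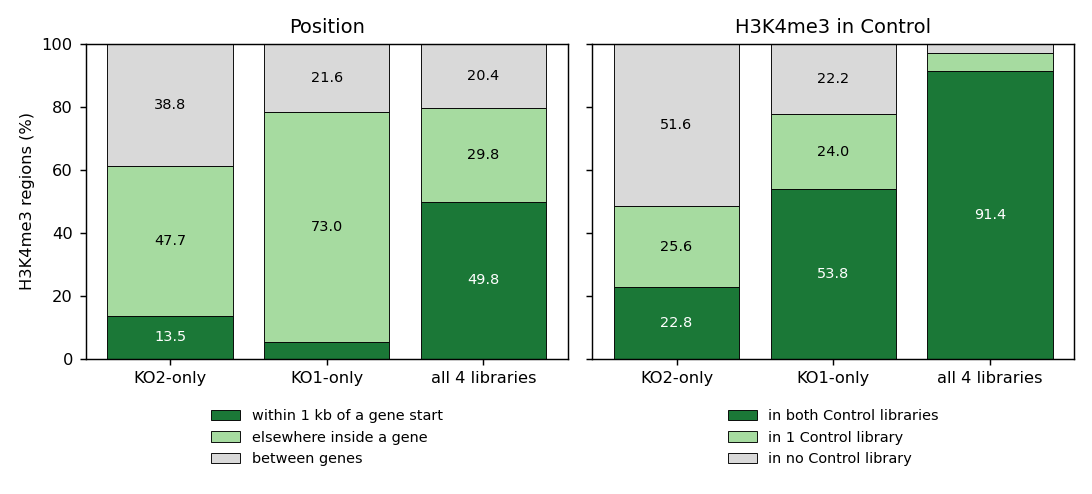
Position (left) and presence in Control (right) of KO2-only, KO1-only and shared H3K4me3 regions, in percent of the 4453, 3601 and 32362 regions of each kind. Starts include both ends of protein-coding genes without a listed start, and between genes means outside protein-coding genes. The inside-gene share is 47.7% of KO2-only and 73.0% of KO1-only regions, and the share with no Control peak is 51.6% of KO2-only and 22.2% of KO1-only regions.

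The rule sits on a graded edge. A further 4953 regions were in both KO2 libraries and 1 KO1 library, and 4495 in both KO1 libraries and 1 KO2 library. Peaks of KO2-only members covered a median of 270.5 bp in KO2; in the regions just outside they covered 322 bp in KO2. For KO1-only members the median was 263 bp in KO1; just outside it was 317.5 bp in KO1. With 1 library left out the rule asks for less, and the counts were 6927 to 15565 KO2-only and 4904 to 14210 KO1-only regions. When peaks within 1 kb of each other were joined, 2137 KO2-only and 1187 KO1-only regions were left.

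H3K27ac took no part in choosing members. Most KO2-only regions carried H3K27ac in KO2, while most KO1-only regions had none in either knockout line. An H3K27ac peak met 66.6% and 65.8% of the KO2-only regions in the KO2 libraries, 17.7% and 14.8% in the KO1 libraries, and 9.27% and 11.9% in Control. The means were 66.2% ± 0.524 in KO2 and 16.2% ± 2.05 in KO1 (SD, n = 2 each), a difference of 49.99 points. At KO1-only regions the shares were 17.8% and 17.995% in KO2, 20.9% and 17.7% in KO1, and 10.9% and 11.7% in Control. Here the lines overlapped: the KO2 values lay between those of the KO1 libraries. Regions of all 4 libraries carried H3K27ac in 79.3% of cases in both KO2 libraries, in 61.1% and 59.4% in KO1, and in 49.4% and 51.4% in Control. The difference between the lines was thus 49.99 points at KO2-only regions, -1.46 points at KO1-only regions (exact 2-sided permutation p = 1) and 19.06 points at shared regions. For KO2-only and for shared regions the exact 2-sided permutation p was 0.333, the smallest that 2 against 2 libraries allow. The KO2 libraries did not overlap the KO1 libraries in either.

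The H3K27ac lists of KO2 were longer, and this moved with its shares. With the same number of H3K27ac peaks taken from each list, KO2-only regions were met in 45.9% and 47.0% of cases in KO2, and 16.6% and 14.8% in KO1. KO1-only regions were then met in 7.50% and 7.78% of cases in KO2, and 20.3% and 17.7% in KO1. The difference, KO2 minus KO1, was then 30.7 points at KO2-only and -11.4 points at KO1-only regions. When an H3K27ac peak within 1 kb was counted instead, with the whole lists, KO1-only regions were met in 40.04% and 37.9% of cases in KO2, and 32.7% and 31.0% in KO1, a difference of 7.12 points. The direction at KO1-only regions thus turned with the setting, while that at KO2-only regions did not, at 41.1 points within 1 kb.

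The H3K27ac share depended on where a region lay. KO2-only regions between genes had H3K27ac in 76.1% and 75.6% of cases in KO2, against 24.97% and 20.5% in KO1. Inside genes the shares were 65.1% and 63.5% in KO2, against 14.9% and 12.8% in KO1, and near starts 44.8% and 45.9% in KO2, against 6.66% and 5.16% in KO1. KO1-only regions inside genes, the bulk of that set, had H3K27ac in 12.1% and 11.8% of cases in KO2, against 12.02% and 9.62% in KO1. The 778 KO1-only regions between genes were the exception, with 37.5% and 39.3% in KO2, against 53.1% and 46.5% in KO1. Both H3K27ac libraries of KO2 and neither of KO1 had a peak at 1605 KO2-only regions (36.0% of them). The same held at 71 KO1-only regions (1.97%) and at 3594 regions of all 4 libraries (11.1%). The reverse held at 116 KO1-only regions (3.22%), 3 KO2-only regions (0.0674%) and 34 regions of all 4 libraries (0.105%). No H3K27ac peak of either line met 25.7% of KO2-only and 68.1% of KO1-only regions.

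**Figure D2:**
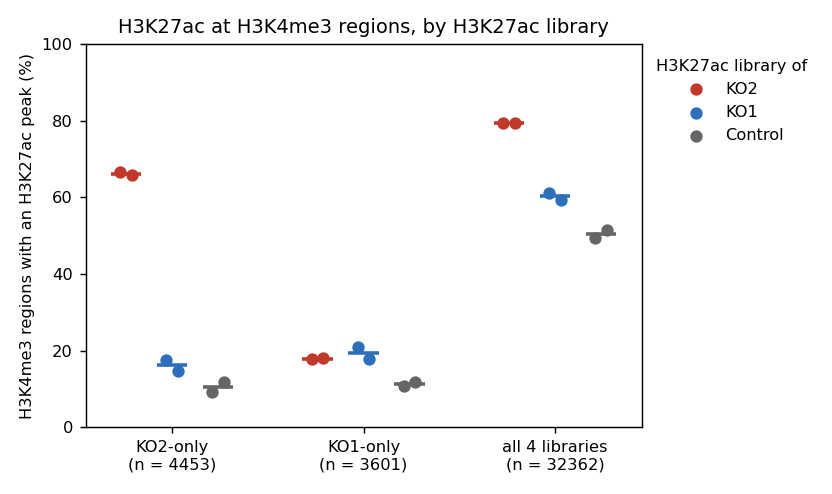
Share of KO2-only, KO1-only and shared H3K4me3 regions met by an H3K27ac peak, in percent. Each point is 1 H3K27ac library and each bar the mean of 2; KO2 points are at 66.6% and 65.8% of KO2-only regions, where KO1 points are at 17.7% and 14.8%.

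The widest KO2-only region (chr15:11860591-11863760, 3170 bp) lay inside Npr3, the natriuretic peptide clearance receptor. H3K4me3 peaks covered 2652 and 2514 bp of it in KO2, none in KO1, and 634 and 150 bp in Control. H3K27ac covered 2917 and 3051 bp in KO2, against 541 and 369 bp in KO1 and 569 and 822 bp in Control. The next 4 lay inside Grik3 (2280 bp), a kainate receptor subunit, inside Zmynd8 (1912 bp), a reader of histone marks, inside Ptprk (1868 bp), a receptor tyrosine phosphatase, and 2790 bp from Camkk2 (1760 bp), a calcium-dependent kinase. Over the 5 regions H3K27ac covered 1158 to 3051 bp in KO2 libraries, against 0 to 940 bp in KO1 libraries.

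The widest KO1-only region (chr14:27349690-27351964, 2275 bp) lay inside Arhgef3, an activator of RhoA. H3K4me3 covered none of it in KO2, 1345 and 2275 bp in KO1, and 1430 and 1496 bp in Control. H3K27ac covered 484 and 597 bp in KO2, against 1693 and 2180 bp in KO1. The next 4 were inside Pou2f1 (1883 bp), which encodes the octamer-binding factor Oct1, Ccny (1556 bp), a cyclin, Il17rd (1548 bp), an inhibitor of fibroblast growth factor signalling, and Ube3c (1542 bp), a ubiquitin ligase. Those in Pou2f1, Ccny and Ube3c had no H3K27ac in any library of KO2, KO1 or Control, and all 5 had H3K4me3 in both Control libraries.

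Some genes held several line-specific regions of 1 kind. At least 1 KO2-only region lay inside or within 5 kb of 2474 of 21887 protein-coding genes (11.3%), and at least 1 KO1-only region at 2115 (9.66%). Both kinds were found at 489 genes. These genes were long: median length was 31.5 kb for genes with KO2-only regions alone and 38.1 kb with KO1-only regions alone, against 17.2 kb for all. Tacc2, which encodes a centrosomal coiled-coil protein, held the most KO2-only regions, 11, and no KO1-only region. Grik3 held 10 KO2-only and no KO1-only regions, and Srgap3 held 9 and none. Plpp3, a lipid phosphate phosphatase, is 75.4 kb long and held 8 KO2-only regions and no KO1-only region. Of those 8, 7 had H3K27ac in both KO2 libraries and neither KO1 library. Msi2, an RNA-binding protein of stem and progenitor cells, held 8 KO2-only regions and 1 KO1-only region.

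Cdk19 and Kansl1 held the most KO1-only regions. Cdk19, a kinase of the Mediator complex, and Kansl1, the scaffold of an acetyltransferase complex, each held 1 KO2-only and 13 KO1-only regions. Kat6b, a histone acetyltransferase, held 1 KO2-only and 11 KO1-only regions. Ptprg, a receptor tyrosine phosphatase, held no KO2-only and 12 KO1-only regions, and Rptor, the Raptor subunit of mTORC1, held 2 and 9. Zfp993, a zinc-finger gene in a cluster of near-identical copies where read placement is uncertain, held none and 10. Of the regions at these 6 genes and the next 6 in rank, none of the KO2-only ones had H3K27ac in KO2 alone except 1 at Fryl. Each of these genes held only 0 to 3 KO2-only regions, so that count rests on few regions. The ranking is by count and was chosen after the values were seen.

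**Figure D3:**
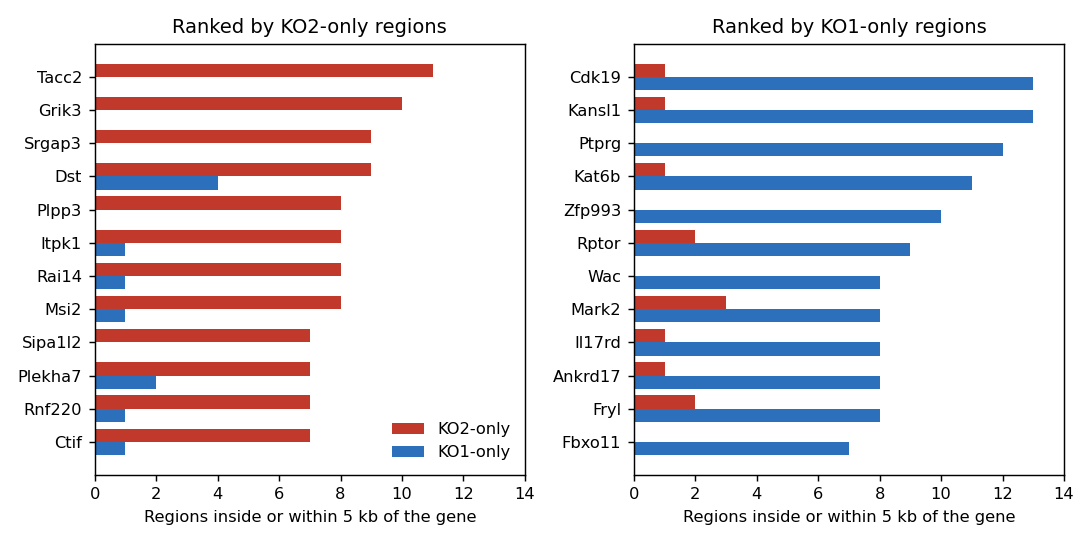
Numbers of KO2-only and KO1-only H3K4me3 regions inside or within 5 kb of the 12 genes with the most of each. Tacc2 leads with 11 KO2-only and 0 KO1-only regions; Cdk19 and Kansl1 each have 1 KO2-only and 13 KO1-only regions.

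Runs of neighbouring members were seen on both sides. Chains of at least 4 members of 1 kind less than 20 kb apart numbered 83 for KO2-only regions, with 385 members (8.65% of all), and 104 for KO1-only regions, with 528 members (14.7%). A protein-coding gene was overlapped by 59 of the 83 KO2-only and 99 of the 104 KO1-only chains. The chain with the most KO2-only regions (chr12:86786745-86827181) had 12 in 40.4 kb over the non-coding genes Gm32806 and Gm51955, of which 2 had a Control peak, and no KO1-only region. The one with the most KO1-only regions (chr15:62057111-62148100) had 12 in 91.0 kb over Pvt1, the long non-coding RNA gene beside Myc, of which 11 had a Control peak, and 2 KO2-only regions. Control peaks met 51.2% of KO2-only and 89.4% of KO1-only members of such chains.

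**Figure D4:**
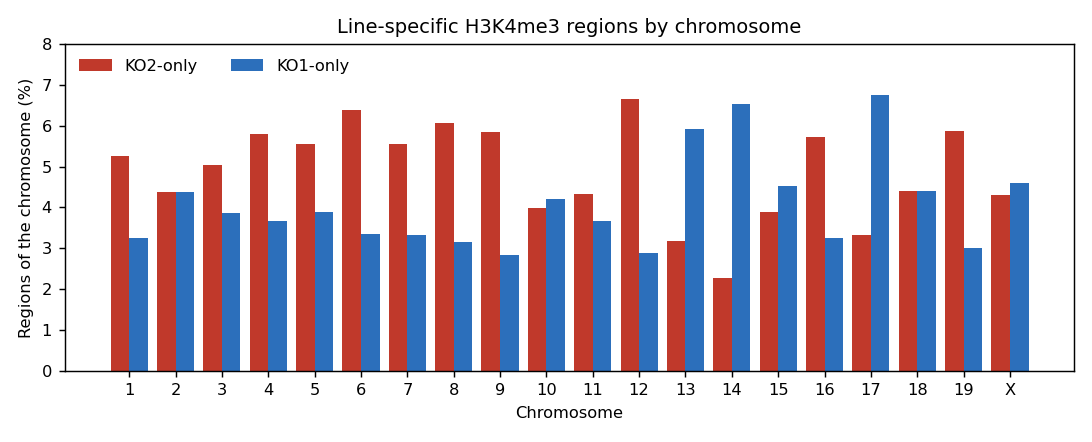
KO2-only and KO1-only H3K4me3 regions as a percent of all regions on each autosome and X. Most chromosomes have more KO2-only regions, while on 13, 14 and 17 KO1-only regions reach 5.92%, 6.53% and 6.75%.

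The balance of KO2-only to KO1-only regions was 1.24 over all chromosomes and varied among them. It was highest on chromosome 12, with 201 KO2-only and 87 KO1-only regions, and on chromosome 9, with 279 and 135. It was lowest among autosomes on chromosome 14, with 72 KO2-only and 206 KO1-only regions, then on chromosome 17, with 142 and 288, and chromosome 13, with 115 and 215. On these 3 chromosomes KO2 also had a smaller share of its peaks. Chromosome 14 held 3.14% and 3.06% of the peaks in KO2, 3.64% and 3.63% in KO1, and 3.70% and 3.71% in Control. Chromosome 17 held 4.31% and 4.37% in KO2, 5.00% and 4.90% in KO1, and 4.86% and 4.89% in Control. Promoter coverage, tested below, had a median difference, KO2 minus KO1, of -1.92 points on chromosome 13, -3.11 on 14 and -3.01 on 17. Over all tested genes it was -0.25 points. Among genes named below, Neurog1, Irf9, Dpy30 and Rps28 lie on these chromosomes, as do Mettl3 and Rpl36, which had more coverage in KO2. Chromosome copy number was not tested. Without chromosomes 13, 14 and 17 there were 4124 KO2-only and 2892 KO1-only regions, and H3K27ac met the KO2-only ones in 66.9% and 66.1% of cases in KO2, against 17.7% and 14.9% in KO1.

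Few promoters switched between the lines as a whole. Within 1 kb of the start, 163 of 21887 protein-coding genes were KO2-only (0.745%) and 56 were KO1-only (0.256%), while 12946 had H3K4me3 in all 4 libraries and 7667 in none. For genes without a listed start the window was set where the gene held most H3K4me3; with listed starts alone 118 were KO2-only and 42 KO1-only. H3K27ac met the 163 KO2-only promoters in 29.4% and 28.8% of cases in KO2, against 6.13% and 4.91% in KO1 and 2.45% and 3.07% in Control. It met the 56 KO1-only promoters in 10.7% and 5.36% of cases in KO2, against 3.57% and 5.36% in KO1. Over all 21887 genes the shares were 50.4% and 50.7% in KO2, against 40.5% and 40.0% in KO1.

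In sequence, line-specific promoters lay between those with H3K4me3 everywhere and those with none. Listed-start promoters held a median of 9.5 CG dinucleotides in the 118 KO2-only, 7 in the 42 KO1-only, 22 in the 10267 marked in all 4 libraries and 3 in the 6317 unmarked ones. The ratio of observed to expected CG was above 0.6 in 27.1% of KO2-only, 16.7% of KO1-only, 78.7% of shared and 3.77% of unmarked promoters. The GC box GGGCGG, searched on both strands, was in 46.6% of KO2-only and 31.0% of KO1-only promoters, against 69.3% of shared, 10.7% of unmarked and 47.0% of all promoters. The TATA box TATAAA, searched in the same way, was in 13.6% of KO2-only, 14.3% of KO1-only and 13.2% of all promoters. A match is a run of letters and not a shown binding site.

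Among the 12 KO2-only promoters with the most H3K4me3, Pou2f3, a POU-domain factor of tuft and skin cells, had 34.8% and 39.8% of the 2 kb on each side of its window centre covered in KO2. In KO1, 12.7% and 5.45% was covered, outside the inner 1 kb. Klhdc7a was covered over 42.5% and 31.4% in KO2, none in KO1, and 13.4% and 10.5% in Control. Plet1, a surface protein of trophoblast progenitors, was at 35.8% and 28.4% in KO2, 15.4% and 0% in KO1, and 26.99% and 13.9% in Control. Ptpn6, the phosphatase SHP-1, was at 32.5% and 30.5% in KO2, 24.4% and 14.9% in KO1, and 21.1% and 26.7% in Control. The other 8 of the leading 12 were Gm36210, Gm7244, Art1, Foxf1, Gm46319, Gm33049, Adam11 and Pmfbp1. The 12 differed in Control: Gm36210 was at 0% in both Control libraries, while Foxf1, a forkhead factor of mesoderm, was at 31.7% and 51.2% there, beside 31.7% and 27.5% in KO2.

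KO1-only promoters were weaker. Lax1, an adaptor of lymphocyte signalling, led with 24.9% and 20.8% of its window covered in KO2, outside the inner 1 kb, and 27.4% and 27.4% in KO1. Kcnh8, a potassium channel, was at 19.6% and 16.2% in KO2 and 24.8% and 25.6% in KO1. H2-T24, a class I histocompatibility gene of a family with close copies, was at 0% in both KO2 libraries, 17.1% and 25.8% in KO1, and 49.8% and 24.3% in Control. The other 9 were Kdm5d, Atp2b4, Gm48175, Rinl, Gm13777, Gm41408, Trim12c, Dnah8 and Tulp1, with KO1 values of 7.02% to 25.6%.

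Tested over all genes by the width of H3K4me3 around the start, 25 promoters were higher in KO2 (0.185% of 13496 tested) and 6 were lower (0.0445%). The test was limma on percent coverage of the 2 kb on each side, at a Benjamini-Hochberg adjusted p of 0.05. The calls are at the edge of what 2 against 2 libraries allow: adjusted p ran from 0.0365 to 0.0467, and 1797 genes had an unadjusted p under 0.05. With any 1 of the 4 libraries left out, limma called 0 genes, with 1214 to 1663 at an unadjusted p under 0.05. It also called 0 with a 1 kb window, with no filter on low coverage and with stricter peaks. All 31 kept their direction in each of these fits. At each of the 31 the KO2 and KO1 values did not overlap, so leaving a library out could not turn the direction. The other fits reused the same libraries, so the kept direction is no independent support. A listed start was used for 17 of the 25 and 5 of the 6; the windows of St14, Vwf, Gm36210, Anxa6 and Il34 were set inside the gene where H3K4me3 was most.

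**Figure D5:**
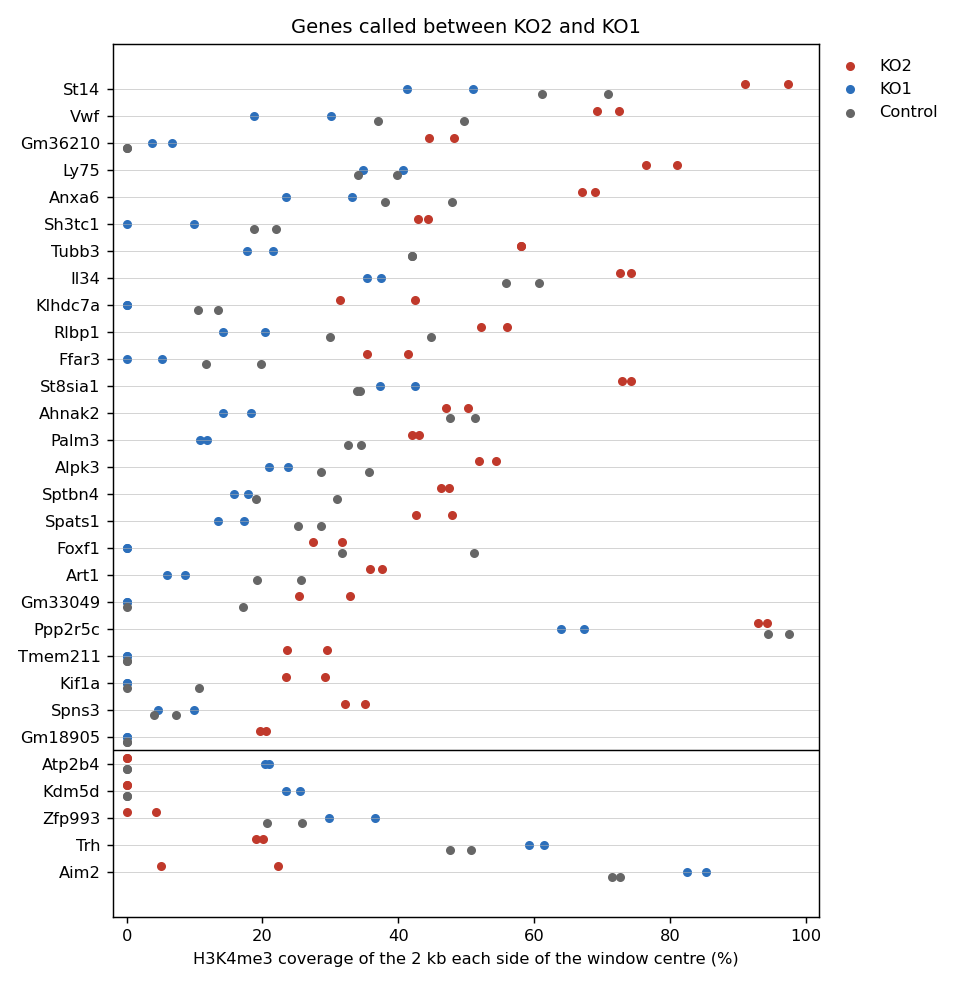
H3K4me3 coverage in percent at the 25 genes called higher (above the line) and 5 of the 6 called lower (below it) in KO2 than in KO1, 1 point per library. Tubb3 is at 58.1% in both KO2 libraries, 17.7% and 21.6% in KO1, and Aim2 at 22.3% and 5.05% in KO2, 85.3% and 82.6% in KO1.

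St14, the membrane protease matriptase (window chr9:31117090-31121090), was covered over 97.4% and 91.1% in KO2, 41.4% and 51.0% in KO1, and 71.0% and 61.2% in Control. Its difference was 48.1 points (SE 4.76, limma adjusted p = 0.0365). Vwf, the von Willebrand factor of blood vessels, was at 72.6% and 69.3% in KO2, 30.2% and 18.7% in KO1, and 37.0% and 49.6% in Control. Both KO2 values lay above every KO1 and Control value at each gene. Ly75, an endocytic receptor of dendritic cells, was at 76.5% and 81.1% in KO2, 34.9% and 40.7% in KO1, and 39.9% and 34.1% in Control. Tubb3, the neuronal beta-tubulin and 1 of the neural markers, was at 58.1% and 58.1% in KO2, 17.7% and 21.6% in KO1, and 42.0% and 42.1% in Control. At Tubb3 the difference was 38.5 points (SE 3.41, limma adjusted p = 0.0365). Of the other 5 neural markers, none passed the test, and Pax6 and Neurod1 had no H3K4me3 in any of the 4 libraries. Anxa6, a membrane-binding annexin, Sh3tc1, Il34, a ligand of the CSF1 receptor, and Gm36210 completed the leading 8, with differences of 37.1 to 41.2 points.

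The remaining 17 differed by 20.1 to 36.9 points. They included Kif1a, the neuronal vesicle kinesin, at 29.3% and 23.4% in KO2, 0% in KO1, and 10.6% and 0% in Control. St8sia1, the synthase of ganglioside GD3, was at 74.2% and 73.0% in KO2, 37.3% and 42.5% in KO1, and 33.9% and 34.4% in Control. Ppp2r5c, a regulatory subunit of protein phosphatase 2A, was at 94.4% and 93.1% in KO2, 63.9% and 67.4% in KO1, and 94.5% and 97.6% in Control. Control thus stood with KO1 at St8sia1 and with KO2 at Ppp2r5c. Over the 25 genes the Control mean was nearer to KO1 than to KO2 at 17, above KO2 at 3 and below KO1 at 4.

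The 6 genes lower in KO2 included the largest difference among the 31. Aim2, the cytosolic DNA sensor that builds an inflammasome (chr1:173418604-173422604), was covered over 22.3% and 5.05% in KO2, 85.3% and 82.6% in KO1, and 71.5% and 72.6% in Control. The difference was -70.2 points (SE 6.07, limma adjusted p = 0.0365). The gene had wide H3K4me3 in KO1 and Control and narrow H3K4me3 in KO2. Trh, the precursor of thyrotropin-releasing hormone, was at 20.02% and 19.095% in KO2, 61.5% and 59.3% in KO1, and 50.7% and 47.6% in Control. Zfp993 was at 4.27% and 0% in KO2, 29.7% and 36.5% in KO1, and 20.7% and 25.8% in Control, with the uncertainty of its copies. Control lay nearer to KO1 at these genes. Atp2b4, a calcium pump of the cell membrane, was at 0% in KO2 and in Control, and at 20.9% and 20.3% in KO1.

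Kdm5d, the Y-linked H3K4 demethylase, was at 0% in both KO2 libraries, 23.5% and 25.6% in KO1, and 0% in both Control libraries. The Y-linked genes Eif2s3y, Uty and Ddx3y did not pass the test. Ddx3y was at 20.3% and 16.7% in KO2, 37.2% and 44.9% in KO1, and 16.5% and 9.02% in Control. Eif2s3y was at 31.4% and 35.7% in KO2, 50.3% and 54.8% in KO1, and 15.4% and 0% in Control. Both KO2 values lay below both KO1 values at each of these 4 genes, as did both Control values. The content of the Y chromosome in each line was not tested, and Y genes share sequence with X copies.

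H3K27ac at the promoters differed on a wider scale, with 7243 genes higher (71.6% of 10111 tested) and 8 lower (0.0791%) in KO2 by the same limma test. The median difference over all tested genes was 14.1 points, and after quantile normalization of the libraries it was -0.995 points, with 78 genes higher and 11 lower. H3K27ac at single genes is therefore set beside that shift. Of the 25 genes called higher for H3K4me3, 23 were tested for H3K27ac, and all 23 passed as higher in KO2. After quantile normalization 8 of the 23 did. Vwf (limma adjusted p = 0.155) and Ly75 (0.175) were among those that did not, while St14 and Ppp2r5c did. At St14 H3K27ac was 97.1% and 94.6% in KO2, 36.1% and 38.4% in KO1, and 26.9% and 31.6% in Control. Its difference of 58.6 points (SE 3.89, limma adjusted p = 0.00239) was 39.9 points after quantile normalization (adjusted p = 0.0336). At Ppp2r5c it was 93.8% and 80.5% in KO2, 15.5% and 6.998% in KO1, and 9.10% and 9.40% in Control. Its 75.9 points were 57.9 after quantile normalization (limma adjusted p = 0.0351). Ppp2r5c thus had H3K4me3 in Control at the level of KO2, and H3K27ac in Control at the level of KO1. Foxf1 and Kif1a had no H3K27ac in any library of the 3 genotypes, so their H3K4me3 in KO2 came without it. Of the genes lower in KO2, Atp2b4, Kdm5d and Zfp993 had no H3K27ac in any library of the 3 genotypes. At Aim2 and Trh H3K27ac was narrow in both lines. Aim2 had 25.04% and 16.5% in KO2 and 21.0% and 10.2% in KO1, and Trh had 20.7% and 12.4% in KO2 and 19.9% and 25.6% in KO1. Neither difference passed the test.

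Naive pluripotency genes gave no call. Of 28 naive pluripotency genes tested, none passed the test in either direction, and the list's median difference was 1.61 points against -0.25 over all 13496 genes. Esrrb, a nuclear receptor of the naive network, was at 26.7% and 27.8% in KO2, 0% and 6.45% in KO1, and 22.4% and 21.7% in Control. The difference of 24.01 points missed the threshold (limma adjusted p = 0.0568). The Esrrb window held no H3K27ac in any library of KO2, KO1 or Control. Inside or within 5 kb of the gene lay 8 H3K4me3 regions of all 4 libraries, so this window does not stand for the whole gene. Tcl1, a co-activator of AKT, was at 91.2% and 77.9% in KO2, 60.7% and 49.3% in KO1, and 66.2% and 67.1% in Control (adjusted p = 0.124). Line-specific regions were found at 8 of 32 naive genes for KO2-only (25% of the list, against 11.3% of all protein-coding genes) and at 6 for KO1-only (18.75%, against 9.66%); no test was made of either share. Lifr, the receptor of LIF, held 4 KO2-only and no KO1-only regions, Il6st, the co-receptor gp130, held none and 3, and Nr5a2 held none and 4. The formative and primed list had no call among 22 tested and a median of 2.84 points. Lefty1, a Nodal antagonist, was at 60.3% and 39.1% in KO2, 100% and 87.7% in KO1, and 95.7% and 96.0% in Control, a difference of -44.1 points (limma adjusted p = 0.0879). Tcf15 was at 68.6% and 63.8% in KO2 and 40.9% and 37.2% in KO1 (adjusted p = 0.0731).

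Among lineage lists, Tubb3 was the single call. The neuroectoderm list had 1 higher and 0 lower of 19 tested, with a median of 1.49 points; Neurog1 was at 10.9% and 3.90% in KO2, 26.5% and 29.2% in KO1, and 13.997% and 0% in Control (limma adjusted p = 0.0782). The mesoderm and endoderm list (17 tested), primitive endoderm (14), trophectoderm (12) and fibroblast (7) lists had none, with medians of 1.87, 5.05, 1.36 and 4.14 points. Snai1, a repressor of epithelial genes, was at 4.199% and 0% in KO2 and 20.2% and 16.2% in KO1, and Gsc at 29.6% and 27.7% in KO2 and 13.6% and 18.5% in KO1. The collagen genes Col4a1 and Col4a2 share 1 window, at 53.5% and 58.8% in KO2 and 36.9% and 36.9% in KO1. Fgfr2, Tead4, Vim and Ccn1 differed by 7.82, 14.9, 12.5 and 11.9 points without passing. Of 25 Hox genes tested none passed, with Hoxb2 at 26.9% and 12.8% in KO2 against 0% and 4.57% in KO1, and Hoxc12 at 24.8% and 21.7% in KO2 against 34.7% and 43.9% in KO1.

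Among regulators of chromatin and RNA methylation 1 promoter passed the test. Kdm5d was the 1 call, lower in KO2, among 21 tested writers and erasers of H3K4 methylation, whose median was -2.22 points. Dpy30, a core subunit of the H3K4 methyltransferases, was at 57.6% and 48.2% in KO2, 82.7% and 68.9% in KO1, and 77.4% and 77.3% in Control (limma adjusted p = 0.188). No gene of the m6A machinery passed (22 tested, median -1.60 points), Mettl3 and Ythdf3 having the largest differences at 6.35 and -9.40 points. Of 21 tested enzymes of histone acetylation none passed either, with Hdac2 and Kat8 at -10.7 and -8.50 points. Of that list's 22 genes, 4 held 5 KO2-only regions and 9 held 31 KO1-only regions: among them 11 in Kat6b, 4 in Ep300, the p300 acetyltransferase, 3 in Kat2b, 2 each in Crebbp and Hdac3, and 1 each in Kat6a, Hdac2 and Sirt1. That is 18.2% of the list with KO2-only and 40.9% with KO1-only regions, beside the 11.3% and 9.66% of all genes given above. The list's median gene length was 36.4 kb, against 17.2 kb for all. Of the 23 m6A genes, 9 held KO2-only (39.1%) and 10 held KO1-only regions (43.5%). Of the 22 H3K4 genes, 2 held KO2-only (9.09%) and 6 held KO1-only regions (27.3%). These genes too were long, with a median of 30.7 kb for the m6A list and 37.1 kb for the H3K4 list. No test was made of these shares.

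Genes of the interferon and double-stranded RNA response showed no call among 18 tested (median 1.12 points). Oas2, an antiviral oligoadenylate synthetase, was at 68.8% and 63.3% in KO2, 31.3% and 34.4% in KO1, and 34.7% and 19.7% in Control, a difference of 33.2 points just short of the threshold (limma adjusted p = 0.0506). Irf9, a factor of the interferon response, ran the other way, at 30.4% and 24.6% in KO2, 50.3% and 50.2% in KO1, and 45.8% and 41.7% in Control (adjusted p = 0.0782). The promoter of Oasl1 was KO2-only, at 4.45% and 8.75% in KO2, 0% in both KO1 libraries, and 0% and 5.35% in Control. KO2-only regions lay at 6 of the 28 protein-coding genes of the list and KO1-only regions at 1, Irf9, which held 2. These are 21.4% and 3.57% of the list, against 11.3% and 9.66% of all protein-coding genes, with no test of either share. Ifitm2, Mavs and Ddx58, the gene of the RNA sensor RIG-I, were among the 6.

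The remaining lists held no call. Imprinted genes (31 tested) had a median of 2.57 points, with Kcnq1ot1 at 71.4% and 65.3% in KO2 and 49.99% and 51.0% in KO1, and Nnat at 54.8% and 35.3% in KO2 and 34.9% and 29.9% in KO1. Germline genes (5 tested) had a median of -4.62 points, with Rpl10l at 40.3% and 33.6% in KO2, 53.9% and 52.1% in KO1, and 14.6% and 19.6% in Control. Dazl was at 5.62% and 0% in KO2 and 9.25% and 8.35% in KO1, and the promoter of Hormad1 was KO1-only, at 5.80% and 7.30%. Clustered protocadherins (36 tested) share windows, and the alpha genes Pcdha1 and Pcdha10 were at 24.3% and 27.7% in KO2 and 24.3% and 24.7% in KO1. Ribosomal protein genes (63 tested) had a median of -0.52 points, with Rps28 at 91.7% and 79.7% in KO2 and 100% in both KO1 libraries, and Rpl36 at 82.9% and 73.6% in KO2 and 65.6% and 64.4% in KO1. Of the 2-cell-like genes 1 could be tested, Eif1a, at 95.8% in both KO2 libraries and 96.4% and 96.1% in KO1. Mettl14, Gapdh and Actb, differed by less than the spread between libraries: Mettl14 was at 44.3% and 46.2% in KO2 and 43.8% and 46.6% in KO1, Gapdh at 95.8% and 93.1% in KO2 and 96.0% and 90.9% in KO1, and Actb at 93.2% and 91.5% in KO2 and 93.1% and 100% in KO1.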

How the data were processed

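Chromatin of 3 genotypes was precipitated for H3K4me3 and H3K27ac, and the authors called peaks on each library. CASAVA, Trimmomatic 0.38, Bowtie 1.2.2 and MACS2 are named with mm10 in the submitters' processing notes; no MACS2 version was stated there. The deposited lists give peak positions and the authors' −log10 p and −log10 q, used only to filter or rank peaks within a list in alternatives; read depth is unknown. Members and gene lists were chosen with earlier results of these data known. Peaks on chromosomes 1 to 19, X and Y were joined where they shared 1 base. Windows were centred on RefSeq GRCm38.p6 starts for 17497 of 21898 genes, choosing the start with most H3K4me3, and for 4401 genes without a listed start on the point inside the gene with most H3K4me3. This choice used the same libraries. Neighbouring genes can share a window. Percent of the window (2 kb each side) covered by peaks was fitted with limma 3.58.1 (R 4.3.3, eBayes with a mean trend) on the 4 knockout libraries of each mark; genes averaging under 5%, or equal in all libraries, were left out. Counts per library were compared by exact permutation (scipy 1.17.1). The fit was tested on simulated data. Named genes were, by rule, the 12 leading line-specific promoters of each kind, the 8 leading calls each way, the 2 largest differences and every line-specific member of each list, the 5 widest regions of each kind, and Mettl3, Mettl14, Gapdh and Actb. Alternatives changed thresholds, windows, normalization, chromosomes and libraries. Input libraries were not analysed here. Some genes that the naming rule picks are not reported here.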

Additional observations from a re-analysis of the deposited data

How the results depend on the processing

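Direction held for all 31 H3K4me3 calls in each fit, but their number rests on the settings: limma called 193 genes with quantile normalization, 132 with Control libraries in the fit, 19 with the replicate number as a block, and 0 with no filter, with a 1 kb window, with a −log10 q of at least 5, and with any library left out. These fits reuse the libraries that chose the 31, so the kept direction is no independent support. Of the 31, 15 were called again with the block. The libraries' deviations correlated at 0.0075 between same-numbered libraries of the lines, so the numbers do not pair them. For H3K27ac, 7251 calls became 89 with quantile normalization, 346 to 5080 with a library left out, and 7418 with the block. Under quantile normalization the H3K27ac difference of Lax1 turned to -3.93 points. With peaks joined within 1 kb, 2137 KO2-only and 1187 KO1-only regions were left, and with a −log10 q of at least 5, 2168 KO1-only regions. With a library left out there were 6927 to 15565 KO2-only and 4904 to 14210 KO1-only regions, and 251 to 344 KO2-only and 95 to 178 KO1-only promoters, since the rule then asks for fewer libraries. The difference in peak number, KO2 minus KO1, was 3092 at a −log10 q of at least 5 and -3177 to 2643 with a library left out; that in covered length was -4.23 to 4.12 Mb with a library left out, and that in median width was -10 bp at the stricter q, 32 bp with peaks joined, and 3 to 29 bp with a library left out. At KO2-only regions the H3K27ac difference was 41.1 points within 1 kb, 45.7 with a −log10 q of at least 5, 30.7 with equal lists and 48.5 to 51.4 with a library left out. At KO1-only regions it was 7.12, -3.35 and -11.4 points in the same order, -3.89 points over 1 kb from shared regions, and -3.05 to 0.139 with a library left out. At regions of all 4 libraries it was 16.4 points within 1 kb, 9.97 with equal lists and 18.2 to 19.9 with a library left out. The causes were not tested. Unknown read depth, 2 libraries per line and peak presence as the measure limit these comparisons: a weak region can miss a list by a few reads.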
